A study of Mus musculus with 6 samples.

Results

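The genes described here encode the nuclear subunits of the 5 oxidative phosphorylation complexes, measured on arrays of mouse bone marrow monocytes cultured with or without IFN-beta. They are the genes whose name on the array marks a subunit of complex I (Nduf genes), complex II (Sdha to Sdhd), complex III (Uqcr genes), complex IV (Cox4 to Cox8 genes) or complex V (Atp5 genes), 83 of the 37324 gene names on the array. Complex I has 37 members, complex II 4, complex III 8, complex IV 16 and complex V 18. Of these, 79 genes were well above background on all 3 arrays of at least 1 group and were tested, among 19499 genes tested in all, and all 79 lay above background on all 6 arrays. The names are those of the array design: Atp5f1 is now called Atp5pb, and Atp5sl and Atp5s are now called Dmac2 and Dmac2l and are no longer named as synthase subunits. Atp5c1-ps is named as a pseudogene, so its probe and that of Atp5c1 may share transcripts.

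Monocytes of C57BL/6J mice aged 6 to 8 weeks were isolated from bone marrow by magnetic sorting and cultured for 60 h. The medium held M-CSF at 20 ng/mL, a growth factor under which monocytes mature into macrophages. The control cultures received M-CSF alone, and the treated cultures received M-CSF and 100 U of mouse IFN-beta, a type I interferon. Each group has 3 samples, each hybridised to 1 single-colour array. The labels do not say whether the 3 samples of a group came from separate mice or cultures, so p-values measure only the spread between these samples, which may be technical.

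Oxidative phosphorylation couples electron transport to ATP synthesis in the inner mitochondrial membrane. Complexes I and II pass electrons from NADH and succinate to ubiquinone, complex III passes them on to cytochrome c, complex IV passes them to oxygen, and complex V makes ATP from the proton gradient that complexes I, III and IV build. In macrophages this pathway and glycolysis are the main sources of ATP, and electron transport also gives rise to reactive oxygen species.

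Levels are log2 of the processed signal minus the 75th percentile of that array, and a difference is the mean of the IFN-beta arrays minus the mean of the control arrays on this scale. The 75th percentile of the signal ran from 305 to 549 on the control arrays and from 236 to 244 on the IFN-beta arrays, between 49.0% and 63.9% of probes lay well above background, and no probe was saturated. The 8 interferon-stimulated genes used as a check had a median level of 1.08, 1.37 and 2.46 on the control arrays and 5.64, 5.74 and 5.75 on the IFN-beta arrays, and all 10 monocyte and macrophage markers were above background on every array. The 10 neutrophil markers had medians from 3.62 to 4.31 on the control arrays and from 5.87 to 6.43 with IFN-beta, and the 7 basophil, mast cell and eosinophil markers from -1.11 to -0.63 and from 1.17 to 1.51, all of them above background on every array; the part of such cells in the levels below was not tested. Controls 1 and 2 stood apart from the other arrays in several marker lists. All 15 stromal markers were above background there, against 6 on control 3 and 8 on each IFN-beta array. The log2 of the summed stromal level was 9.31 and 9.51 on controls 1 and 2, 1.03 on control 3 and 1.49 to 1.78 on the IFN-beta arrays. The log2 of the summed erythroid level, led by the globin gene Hba-a1, was 7.33 and 7.21 on controls 1 and 2, -0.25 on control 3 and 1.05 to 1.51 with IFN-beta, with 2 to 4 of 6 markers above background per array. Of 4 endothelial markers, Tek was above background on controls 1 and 2 alone and Pecam1 and Cdh5 were highest there, while Kdr was highest with IFN-beta. All control arrays and IFN-beta array 1 share slide 1, and IFN-beta arrays 2 and 3 are on slide 2. In bulk samples of this kind, fewer cells of a type and less RNA per cell cannot be told apart.

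Promoter sequences are shown because many respiratory chain genes are known targets of NRF1, of the ETS factor GABP (also called NRF2) and of YY1. RefSeq promoters (GRCm38.p6, 250 bases before to 50 bases after the start) were matched for 68 of the 83 members, and 3 core motifs were searched on both strands: for NRF1 the letters GCGCA and GCGC 1 base apart, for ETS factors CCGGAAG, and for YY1 AAGATGGC. 4 promoters are given 5′ to 3′ on the strand of the gene, with motif matches in capitals: 2 that hold several matches and those of the members that differed most between the groups in each direction. Cox6a1 (chr5:115348909-115349208, minus strand) holds 2 NRF1 cores, which begin at positions -162 and -117 from the start, and 1 ETS core, and Ndufs6 (chr13:73328433-73328732, minus strand) holds 1 NRF1 core before and 1 YY1 core after the start. Cox7a1 (chr7:30183921-30184220, plus strand) and Ndufa12 (chr10:94198785-94199084, plus strand) hold none of the 3.
Cox6a1: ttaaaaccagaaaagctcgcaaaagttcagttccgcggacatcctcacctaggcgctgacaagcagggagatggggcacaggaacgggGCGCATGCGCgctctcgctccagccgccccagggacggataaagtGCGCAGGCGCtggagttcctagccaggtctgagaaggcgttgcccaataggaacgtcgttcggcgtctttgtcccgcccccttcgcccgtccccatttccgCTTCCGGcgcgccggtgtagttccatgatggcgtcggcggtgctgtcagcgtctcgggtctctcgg
Ndufs6: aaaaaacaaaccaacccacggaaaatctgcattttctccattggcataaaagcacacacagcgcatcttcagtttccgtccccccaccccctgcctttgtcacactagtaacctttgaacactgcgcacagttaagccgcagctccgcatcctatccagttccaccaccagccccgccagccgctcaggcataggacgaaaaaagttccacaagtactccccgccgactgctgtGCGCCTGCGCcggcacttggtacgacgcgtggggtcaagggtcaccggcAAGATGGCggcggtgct
Cox7a1: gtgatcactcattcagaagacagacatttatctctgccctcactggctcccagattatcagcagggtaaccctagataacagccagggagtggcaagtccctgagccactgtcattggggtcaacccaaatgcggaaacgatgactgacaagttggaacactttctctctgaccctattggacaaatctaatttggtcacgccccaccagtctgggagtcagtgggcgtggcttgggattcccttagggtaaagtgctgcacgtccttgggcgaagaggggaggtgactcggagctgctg
Ndufa12: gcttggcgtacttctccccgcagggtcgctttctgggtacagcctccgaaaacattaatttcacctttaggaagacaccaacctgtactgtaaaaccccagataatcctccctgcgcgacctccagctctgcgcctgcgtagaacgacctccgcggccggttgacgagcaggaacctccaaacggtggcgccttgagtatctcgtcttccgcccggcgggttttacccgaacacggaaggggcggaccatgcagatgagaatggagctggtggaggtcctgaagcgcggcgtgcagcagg

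Of the 68 promoters, 17 (25%) held the NRF1 core, against 7.17% of the 17492 promoters of protein-coding genes, 16 (23.5%) held the ETS core, against 12.9%, and 11 (16.2%) held the YY1 core, against 3.57%. At least 1 of the 3 was found in 38 members (55.9%), against 21% of all genes. These were 17 of 32 promoters of complex I, 3 of 3 of complex II, 3 of 5 of complex III, 3 of 12 of complex IV and 12 of 16 of complex V. A core of the interferon-stimulated response element, searched as GAAA, any 2 bases and GAAA, was found in Ndufa9 and Ndufs3 alone, 2.94% of members against 3.94% of all genes. Members with a match to NRF1, ETS or YY1 had a median difference between the groups of 0.01 (38 tested, 20 of them positive), and members with none had -0.05 (28 tested, 12 positive). These matches describe letters in this window, not bound sites.

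Across the pathway, 1 of the 79 tested members rose with IFN-beta and 2 fell, while the rest did not pass the test. Ndufa12, an accessory subunit of complex I, was the one that rose. Cox7a1, the heart and skeletal muscle isoform of complex IV subunit 7a, and Cox4i2, the lung isoform of complex IV subunit 4 known for its induction by low oxygen, were those that fell. The test was limma with Benjamini-Hochberg adjustment over all genes at an adjusted p of 0.05. By the same rule 11.8% of all genes tested were higher and 8.03% were lower, 19.8% in all. Without adjustment, 7 members had a p under 0.05, 1 of them higher (Ndufa12) and 6 lower (Ndufb2, Ndufv1, Uqcr11, Uqcrh, Cox4i2 and Cox7a1), and none was in complex II or V. The shares of all genes were 21.5% and 14.8%, above those of the members. Without control 3 the counts were 9 higher and 3 lower, beside 33.1% and 15.1% of all genes. Without any other single array no member was called higher and 1 or 2 were called lower: 2 without IFN-beta 1, and 1 for each of the rest. Shares of all genes were not counted for those fits, so these counts have no background beside them.

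The median difference of the 79 members was -0.03 (quartiles -0.24 and 0.10), with 37 positive and 42 negative, and that of all genes tested was 0.10 (quartiles -0.27 and 0.43). By complex the medians were -0.01 for complex I, 0.07 for complex II, -0.01 for complex III, -0.10 for complex IV and -0.03 for complex V. Under the percentile scaling and without a slide block, the intervals of most members bounded a change to less than 2-fold. The standard error had a median of 0.19 and the 95% interval a median half-width of 0.44. The interval lay within a 2-fold change in either direction for 75 members and within a 1.5-fold change for 30. The 4 whose interval reached past 2-fold were Cox7a1, Cox4i2, Ndufa12 and Ndufc1. With the slide as a block, or within slide 1 alone (3 control arrays against 1 IFN-beta array), no member was called and the median was -0.01; with the block 3.41% of all genes were higher and 1.92% lower, and within slide 1 it was 1.28% and 0.61%.

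**Figure D1:**
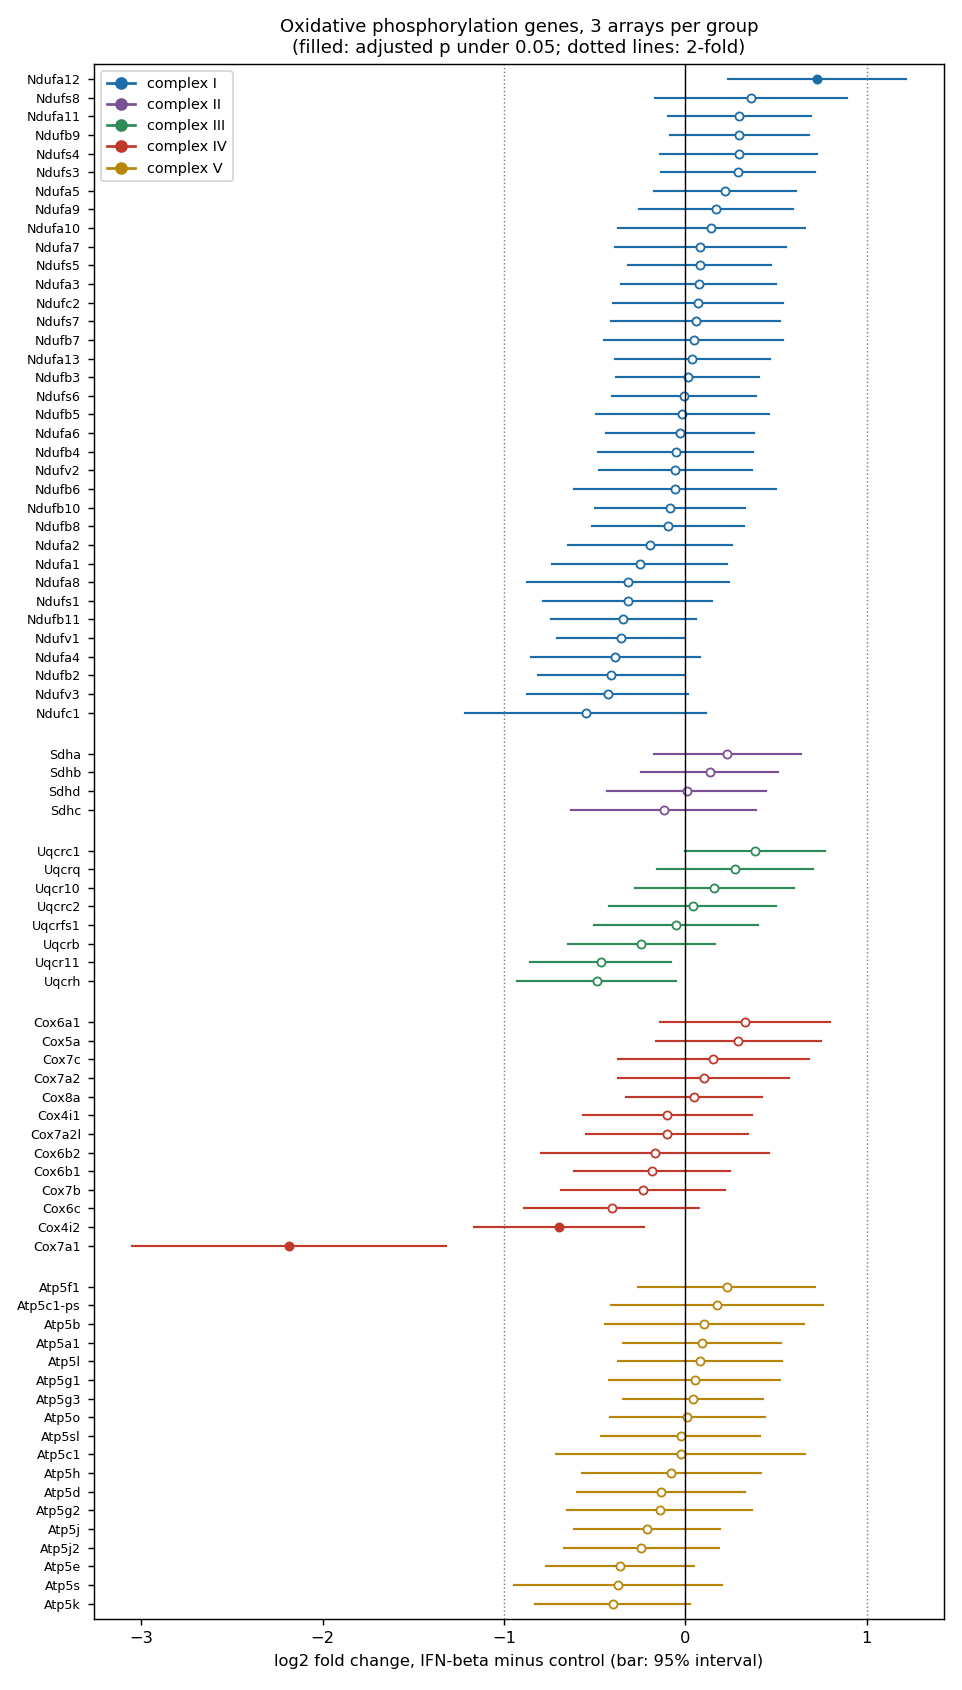
Difference between IFN-beta and control arrays (log2, points) with its 95% interval (bars) for 78 of the 79 tested members, by complex; filled points have an adjusted p under 0.05 and dotted lines mark a 2-fold change. Cox7a1 stands apart at -2.19, and all other points lie between -0.70 and 0.72.

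Ndufa12 had levels of 5.02, 4.98 and 5.51 on the control arrays and 5.86, 5.70 and 6.13 on the IFN-beta arrays (probe at chromosome 10, 93683562 to 93683621, mm9, as the files place it). All IFN-beta arrays lay above all control arrays, and control 3 lay nearest to them. The difference was 0.72 ± 0.21 (SE, n = 3 per group; limma adjusted p = 0.0490), a 1.65-fold higher level. This call was at the edge of the threshold: without control 3 the difference was 0.89 (limma adjusted p = 0.00614), and without any one of the other 5 arrays the adjusted p ran from 0.0909 to 0.179. Against control 3 alone the difference was 0.38 (limma adjusted p = 0.386). In every fit against control 3 alone, that array is assumed to vary as the IFN-beta arrays do, since it has no replicate.

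No other member of complex I passed the test, and of its 36 tested members 17 had a positive and 19 a negative difference. The genes named for the flavoprotein fraction of the complex all had negative differences by the probes that represent them. Of these, Ndufv2 had -0.06 (95% interval -0.48 to 0.37). Ndufv1, which binds NADH and the flavin, had levels of 5.05, 5.00 and 5.08 on the control arrays and 4.61, 4.67 and 4.78 with IFN-beta. These groups did not overlap, and the difference was -0.36 ± 0.15 (95% interval -0.71 to -0.01, limma adjusted p = 0.132). Ndufv3, an accessory subunit of the same fraction, had 5.84, 5.83 and 6.18 on the control arrays and 5.60, 5.27 and 5.69 with IFN-beta, again without overlap (-0.43, limma adjusted p = 0.149). The second probes of Ndufv1 and Ndufv3 had the opposite sign, 0.06 for Ndufv1 and 0.27 for Ndufv3.

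Among the genes named for the iron-sulfur fraction of the complex, Ndufs1 had a difference of -0.32, and Ndufs3, Ndufs4 and Ndufs8 had 0.29, 0.29 and 0.36, with adjusted p from 0.288 to 0.291. Ndufs6, whose promoter is shown above, had -0.01 (95% interval -0.40 to 0.39). Of the accessory subunits, Ndufb9 had levels of 5.26, 5.26 and 5.37 on the control arrays and 5.60, 5.42 and 5.76 with IFN-beta (0.30, adjusted p = 0.230), every IFN-beta array above every control array. Ndufc1 had the lowest difference of the complex, with 5.20, 5.16 and 5.49 on the control arrays and 5.18, 4.91 and 4.10 with IFN-beta. IFN-beta 3 alone was far below the rest there, and the difference was -0.55 ± 0.29 (95% interval -1.21 to 0.11, limma adjusted p = 0.206).

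Ndufa4 is listed here by its symbol, although its protein is now known as a subunit of complex IV. It had 4.94, 4.93 and 5.32 on the control arrays and 4.79, 4.40 and 4.84 with IFN-beta. The groups did not overlap and the difference was -0.39 ± 0.20 (95% interval -0.85 to 0.08, limma adjusted p = 0.204). Its paralogue Ndufa4l2, known as a target of hypoxia-inducible factor, was not tested: 1 of its probes read -0.75 and -0.78 on controls 1 and 2 and was not well above background on control 3 or on any IFN-beta array, and the other was above background nowhere.

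Complex II, the succinate dehydrogenase of the tricarboxylic acid cycle, had no member past the test and no member whose groups were apart. By the probes that represent the genes, Sdha, the flavoprotein, had the highest difference. Its levels were 4.27, 4.19 and 4.62 on the control arrays and 4.64, 4.53 and 4.60 with IFN-beta. Control 3 lay among the IFN-beta arrays, and the difference was 0.23 ± 0.18 (95% interval -0.18 to 0.64, limma adjusted p = 0.375). The other tested probes of Sdha, all dimmer, differed in sign, with 0.33, -0.26 and -0.31. When its probes were averaged the difference was -0.002. Sdhc, a membrane anchor, had the lowest, -0.12, with 3.84, 3.74 and 4.33 against 3.68, 3.75 and 4.12, and these ranges overlapped. The iron-sulfur subunit Sdhb had 0.13 and the other anchor Sdhd 0.01.

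In complex III, the members at both ends had groups that did not overlap, and none passed the test. Uqcrc1, a core subunit, had 4.44, 4.39 and 4.67 on the control arrays and 4.78, 4.86 and 5.02 with IFN-beta (0.38 ± 0.17, 95% interval -0.00 to 0.77, limma adjusted p = 0.141). Uqcrh, the small acidic hinge protein, had 6.43, 6.44 and 6.85 against 6.14, 5.90 and 6.22 (-0.49 ± 0.19, 95% interval -0.93 to -0.05, limma adjusted p = 0.107). Uqcr11, the smallest subunit, had 5.51, 5.53 and 5.74 against 5.16, 4.96 and 5.25 (-0.47 ± 0.17, 95% interval -0.85 to -0.08, limma adjusted p = 0.0855). Both small subunits were thus lower on every IFN-beta array than on any control array. The Rieske protein Uqcrfs1 had -0.05 and the core subunit Uqcrc2 had 0.04.

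Cox7a1 of complex IV had the largest difference of all members. Its levels were 2.83, 2.30 and 1.29 on the control arrays and -0.18, -0.20 and 0.25 on the IFN-beta arrays. Every control array lay above every IFN-beta array, and control 3 was the lowest of the controls. The difference was -2.19 ± 0.37 (SE, n = 3 per group; limma adjusted p = 0.00693), a 4.55-fold lower level. The call was kept without any one array (differences from -2.61 to -1.84). Its 1 probe, shown because the result rests on it, has 60 bases and is placed by the files on chromosome 7 from 30970337 to 30970948 (mm9), a span of 612 bases, so that it crosses at least 1 intron.
Cox7a1 probe: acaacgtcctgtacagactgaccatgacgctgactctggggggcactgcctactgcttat
The stromal and erythroid markers, and Tek, were high on the same controls 1 and 2 on which Cox7a1 was highest, and the part of such RNA in its level was not tested. Against control 3 alone the difference was -1.34 (limma adjusted p = 0.0302, with the spread taken from the IFN-beta arrays). Within slide 1, where IFN-beta 1 is the only IFN-beta array, the difference was -2.32. With the slide as a block the difference rests on those same arrays and so is the same value (limma adjusted p = 0.0753).

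Cox4i2 had levels of -0.52, -0.51 and -0.46 on the control arrays and -0.84, -1.50 and -1.25 on the IFN-beta arrays (probe at chromosome 2, 152590612 to 152590671, mm9). The 3 controls were nearly equal and all lay above the IFN-beta arrays, of which IFN-beta 1, on the slide of the controls, was the highest. The difference was -0.70 ± 0.20 (SE, n = 3 per group; limma adjusted p = 0.0482), a 1.62-fold lower level. The call was lost when control 1 or 2 or IFN-beta array 2 or 3 was left out (limma adjusted p from 0.134 to 0.162). Against control 3 alone the difference was -0.74 (limma adjusted p = 0.196), and with the slide as a block it was -0.34 (limma adjusted p = 0.440).

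The widely expressed counterparts of these isoforms did not pass the test. Cox4i1 had 6.68, 6.67 and 7.18 on the control arrays and 6.65, 6.66 and 6.91 with IFN-beta (-0.10, 95% interval -0.57 to 0.36). Cox7a2, the counterpart of Cox7a1 in most tissues, had 5.63, 5.57 and 6.13 against 5.81, 5.78 and 6.04 (0.10, 95% interval -0.37 to 0.57). Cox7a2l, a related protein that helps complexes III and IV to assemble into supercomplexes, had 6.31, 6.29 and 6.79 against 6.41, 6.25 and 6.41 (-0.10, 95% interval -0.55 to 0.34). In all 3 genes the groups overlapped and control 3 was the highest array.

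The isoforms of subunit 8 differed in the arrays on which they were above background. Cox8a, the widely expressed form, had 6.69, 6.69 and 6.91 on the control arrays and 6.86, 6.68 and 6.88 with IFN-beta (0.05, 95% interval -0.33 to 0.42). Cox8b, the muscle form, read 3.79 and 3.09 on controls 1 and 2 but was not well above background on control 3 or on any IFN-beta array, where its values ran from -6.52 to -6.07. With only 2 of 3 control arrays above background it was not tested, and its bright arrays were those with the high stromal and erythroid markers, among them Dcn, Lum, Col3a1 and Pdgfra, which were not above background on control 3. The part of RNA from such cells in the levels of Cox8b and Ndufa4l2 was not tested. Cox7b2 was above background on control 2 alone and Cox8c nowhere.

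**Figure D2:**
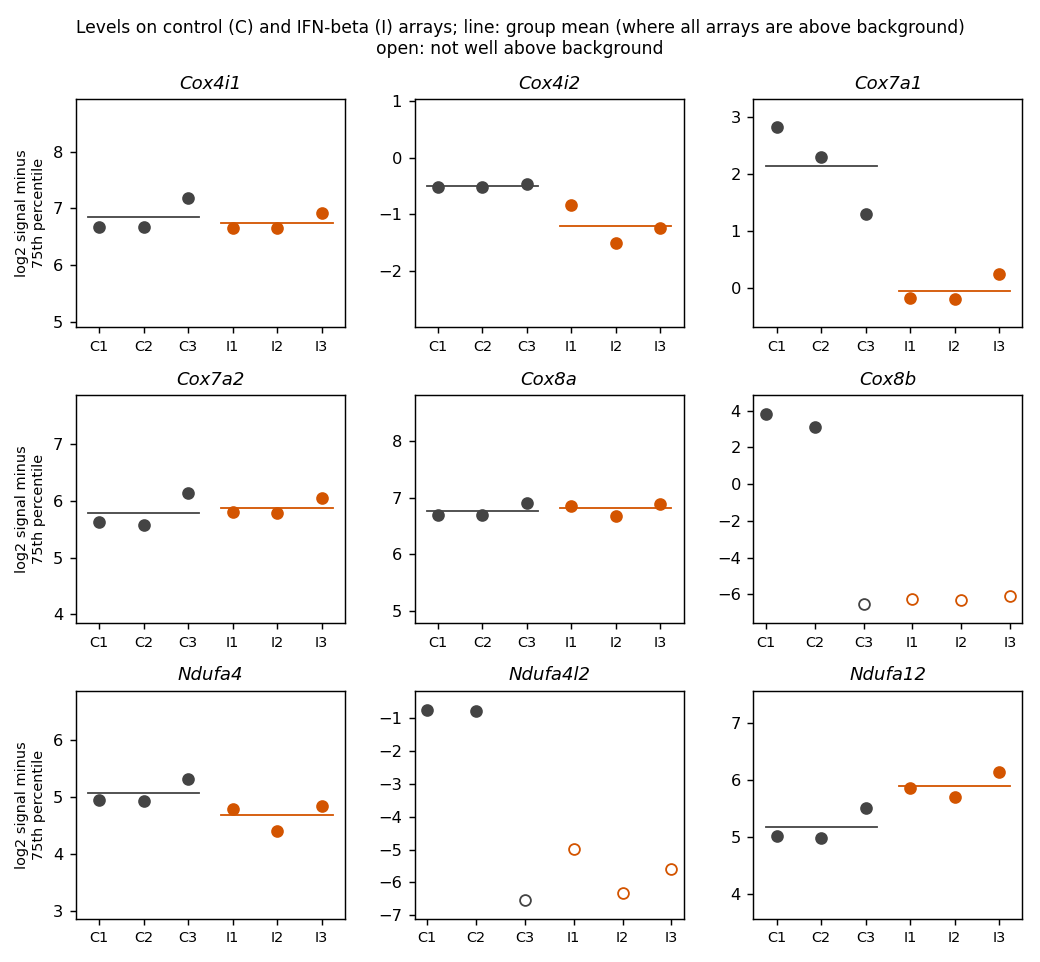
Level on each array (log2 signal minus the 75th percentile of the array) of 8 isoform genes and Ndufa12; C1 to C3 are control arrays and I1 to I3 IFN-beta arrays, lines are group means where all 6 arrays were above background, and open points are not well above background. Cox7a1 lies between 1.29 and 2.83 on the controls and between -0.20 and 0.25 with IFN-beta, while Cox8b and Ndufa4l2 are above background on C1 and C2 alone.

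Of the other complex IV members, Cox6a1, whose promoter holds 2 NRF1 cores, had the highest difference. It had 7.68, 7.66 and 8.24 on the control arrays and 8.19, 8.13 and 8.26 with IFN-beta (0.33 ± 0.20, 95% interval -0.14 to 0.80, limma adjusted p = 0.274). Controls 1 and 2 lay below the IFN-beta arrays and control 3 among them. Cox6b1 had 2.86, 2.83 and 3.07 against 2.82, 2.47 and 2.92 (-0.18), and the testis isoform Cox6b2 had -1.46, -1.43 and -1.14 against -1.12, -1.31 and -2.09 (-0.17, 95% interval -0.79 to 0.46). Both overlapped between the groups. Cox6c had 5.76, 5.75 and 5.79 against 5.75, 5.29 and 5.05, so that IFN-beta 1 was level with the controls and the other IFN-beta arrays were lower (-0.41, limma adjusted p = 0.199). Cox7c had 0.15 by the probe that represents it and -1.31 by a second, dimmer probe (limma adjusted p over all probes = 0.0542). The dimmer probe read 2.67, 2.31 and 2.32 on the control arrays and 2.15, 0.51 and 0.72 with IFN-beta.

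No member of complex V passed the test, and 8 of its 18 members had a positive difference. The alpha, beta and gamma subunits of the F1 part, where ATP is made, had differences of 0.09 for Atp5a1 (95% interval -0.34 to 0.53), 0.10 for Atp5b (-0.44 to 0.65) and -0.03 for Atp5c1 (-0.71 to 0.66) by the probes that represent them. The other probes of these genes gave differences of 0.51 for Atp5a1 (limma adjusted p over all probes = 0.157) and 0.68 and 0.48 for Atp5b (0.0645 and 0.0841). The subunit c genes encode the same mature ring protein. Atp5g1 had 5.50, 5.55 and 6.03 on the control arrays and 5.66, 5.64 and 5.94 with IFN-beta (0.05). Atp5g2 had 6.62, 6.59 and 7.22 against 6.68, 6.49 and 6.83 (-0.14), and Atp5g3 had 5.92, 6.00 and 6.28 against 6.09, 6.08 and 6.17 (0.04). All 3 overlapped between the groups, with control 3 the highest array.

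By the probes that represent the genes, Atp5f1, the b subunit of the peripheral stalk, had the highest difference of complex V, 0.23 (95% interval -0.26 to 0.72). Its levels were 5.66, 5.63 and 6.23 against 6.12, 5.92 and 6.17. The other tested probes of Atp5f1 had 0.02 and -0.17, and when its probes were averaged the difference was 0.02. Atp5k, the small membrane subunit e, had the lowest, -0.40 ± 0.18 (95% interval -0.83 to 0.03, limma adjusted p = 0.158), with 5.70, 5.64 and 6.05 against 5.56, 5.27 and 5.36. Its groups did not overlap, nor did those of Atp5e, the epsilon subunit of the central stalk (6.27, 6.16 and 6.52 against 6.13, 5.85 and 5.89, -0.36). Atp5h, subunit d of the peripheral stalk, had 3 tested probes that differed. The representing probe had -0.08, another -0.27, and the third -0.60 ± 0.16 (limma adjusted p over all probes = 0.0374), with 5.97, 5.89 and 5.79 on the control arrays and 5.45, 5.16 and 5.27 with IFN-beta. Over the pathway, 28 members had several tested probes and 14 of them had probes of opposite sign.

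In 15 members every IFN-beta array was below every control array, and in 3 every IFN-beta array was above, while over all genes tested these groups held 16.8% and 23.4%, together 40.2%. Among the 15 were Ndufa4, Ndufb2, Ndufb11, Ndufv1, Ndufv3, Uqcr11, Uqcrb, Uqcrh, Cox4i2, Cox6c, Cox7a1, Atp5e, Atp5j and Atp5k, and the 3 were Ndufa12, Ndufb9 and Uqcrc1.

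The control arrays did not agree on the level of the pathway. For 78 of the 79 members control 3 was above both controls 1 and 2, which held for 73.9% of all genes, and Cox7a1 was the exception. Relative to each gene's mean over the 6 arrays, the median member stood at -0.10, -0.15 and 0.28 on controls 1, 2 and 3 and at -0.00, -0.13 and 0.12 on IFN-beta 1, 2 and 3. The same medians over all genes were -0.15, -0.18 and 0.15 on the controls and 0.09, 0.01 and 0.08 with IFN-beta. In 58 members control 3 was also above all IFN-beta arrays, and in 32 members controls 1 and 2 were below all IFN-beta arrays, which held for 41.5% and 48.5% of all genes.

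**Figure D3:**
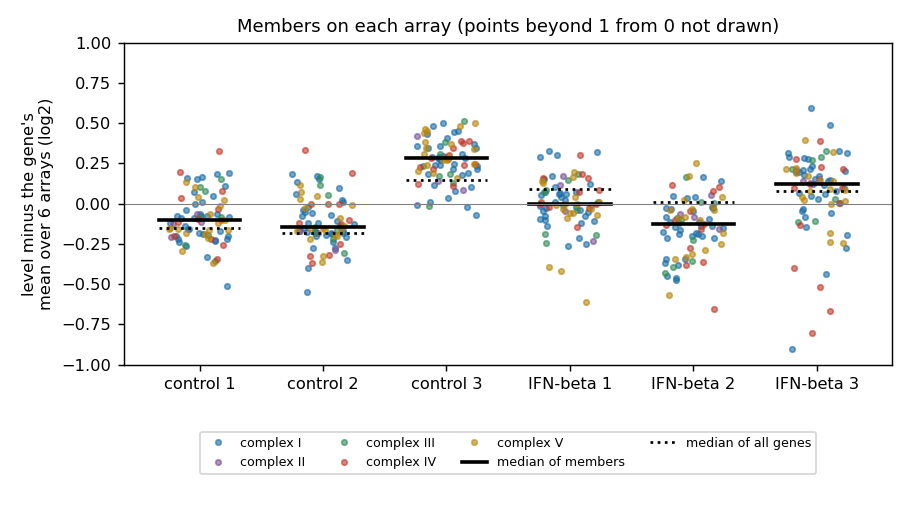
Level of each tested member on each array minus that gene's mean over the 6 arrays (log2), coloured by complex, with the median of members (solid bar) and of all genes (dotted bar); 4 points beyond 1 are not drawn. The median member is highest on control 3, at 0.28, and lowest on control 2, at -0.15.

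The direction of the comparison therefore depended on the control arrays used. Without control 3 the median member had a difference of 0.12 (all genes 0.22), and 9 members were called higher and 3 lower, beside 33.1% and 15.1% of all genes. The 9 were Ndufa12, Ndufs3, Ndufs8, Sdha, Uqcrc1, Uqcrq, Cox6a1, Atp5f1 and Atp5c1-ps, and the 3 were Cox7a1, Cox4i2 and Uqcr11. Each call rests on the probe that represents the gene, and the tested probes of Sdha and of Atp5f1 differed in sign in the main test. Against control 3 alone the median was -0.31 (all genes -0.10), with no member called higher and 1, Cox7a1, called lower, beside 5.22% and 4.33% of all genes. The sign of the difference turned between these fits in 44 of the 79 members. The median member was below the median gene in both.

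The scaling of the arrays also moved the counts. The median member was negative under the percentile scaling and under all 6 other scalings, and 0.13 to 0.29 below the median of all genes in each. Fast cyclic loess moved the median of all genes from 0.10 to -0.03 and spike-in scaling moved it to -0.21. Members called lower numbered 10 with quantile normalization, 15 with cyclic loess, 2 with spike-in scaling, 9 with normexp background correction and percentile scaling, 17 with normexp and quantile normalization, and 5 in the authors' deposited table of log2 values. The shares of all genes called lower under these were 8.73%, 13.9%, 14.2%, 8.47%, 10.4% and 7.94%. Members called higher numbered 1 under 4 of the 6, where 13.2% to 15.1% of all genes were called higher. None was called higher with spike-in scaling (5.11% of all genes) or with normexp and percentile scaling (19.7%). With array weights, which do not rescale the arrays but weight them, 17 members were called higher and 14 lower, beside 43.1% and 22.3% of all genes.

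Of the 79 members, 21 were called lower under at least 1 of the 6 other scalings, as were 19.3% of all genes. Cox7a1 was called lower under all 6, Uqcrh and Uqcr11 under 5, and Ndufb2, Ndufv1, Ndufv3, Atp5e and Atp5k under 4. Ndufa12 was called higher under 4 of the 6 and had 0.41 with spike-in scaling (limma adjusted p = 0.375). Cox4i2 was not called with quantile normalization, with normexp or in the deposited table (limma adjusted p from 0.0595 to 0.101).

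**Figure D4:**
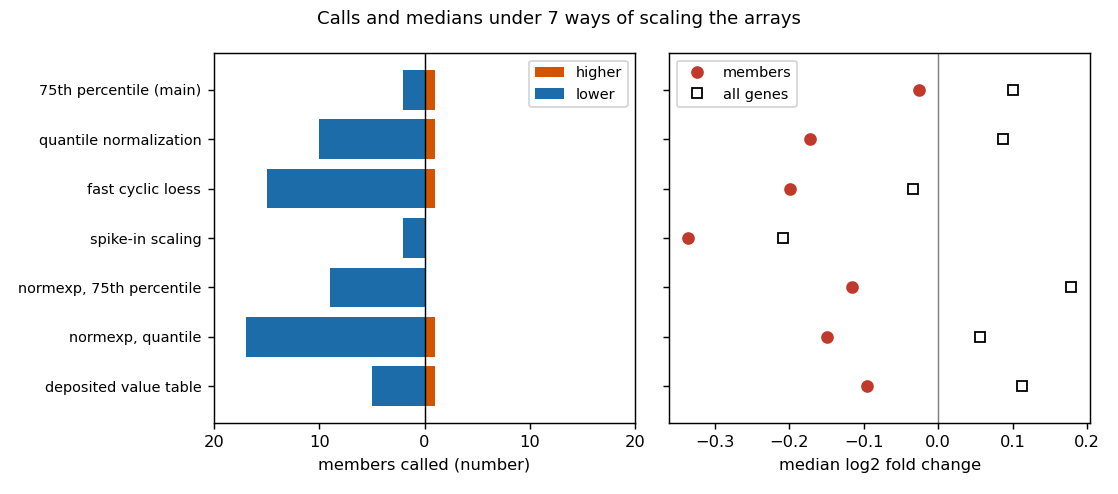
Number of members called higher (right) and lower (left) at an adjusted p under 0.05 and the median difference of members (points) and of all genes (squares), for the percentile scaling and 6 others. Between 2 and 17 members are called lower and at most 1 higher, and the members' median lies below that of all genes in each.

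Other genes of the pathway were described from lists of the partner genes. Of the 13 subunits that mitochondrial DNA encodes, 11 were on the array and tested, and 1 fell: ND1, a membrane subunit of complex I. None rose, and of all genes tested 11.8% were higher and 8.03% lower. It had 4.17, 3.99 and 4.43 on the control arrays and 3.44, 3.58 and 3.47 with IFN-beta (-0.70 ± 0.17, n = 3 per group; limma adjusted p = 0.0294). The groups did not overlap, but the call was kept without control 3 alone and lost without any other single array (limma adjusted p from 0.0561 to 0.111). The list had a median of -0.21, with 2 of 11 positive, ND6 at 0.49 and COX2 at 0.40, neither past the test. The files place the probe for ND3 on chromosome 1, so it may not read the mitochondrial gene alone.

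Factors that assemble the complexes had higher medians than the subunits they assemble for complexes I and IV. Of 15 complex I assembly factors 2 rose and none fell, with a median of 0.32, beside the 11.8% and 8.03% of all genes given above. The number called higher was 8 without control 3, 4 with cyclic loess and 0 with spike-in scaling. Over all genes the shares were 33.1% higher and 15.1% lower without control 3. They were 14.5% and 13.9% with cyclic loess and 5.11% and 14.2% with spike-in scaling. Ndufaf6, a factor for early assembly, rose by 1.07 ± 0.23 (limma adjusted p = 0.0167), and Ecsit, which also takes part in innate immune signalling, by 0.66 ± 0.15 (limma adjusted p = 0.0223). With spike-in scaling neither was called (0.76 and 0.35, limma adjusted p = 0.103 and 0.377). Ndufaf6 was also not called when its probes were averaged (0.61, limma adjusted p = 0.0576). Of 21 complex IV assembly factors 4 rose and none fell, with a median of 0.36. Here 11 were called higher and 1 lower without control 3, 5 and 1 with cyclic loess, and 1 and 1 with spike-in scaling, beside the same shares of all genes. Cox18, which inserts a part of subunit 2 into the membrane, had 1.27, 1.19 and 1.55 on the control arrays and 2.72, 2.58 and 2.72 with IFN-beta. The groups were far apart, and the difference was 1.34 ± 0.17 (n = 3 per group; limma adjusted p = 0.00181), kept without any one array and 1.13 against control 3 alone. Cox10, which makes heme O, rose by 0.77 (limma adjusted p = 0.0326), but was not called with spike-in scaling (0.46, limma adjusted p = 0.283) or when its probes were averaged (0.44, limma adjusted p = 0.0847). The medians of both lists were nearer 0 against control 3 alone, at 0.10 and 0.09, and with spike-in scaling, at 0.01 and 0.05. No test compared these lists with the subunits.

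Of 4 complex II assembly factors, Sdhaf3 fell, by 0.83 on the log2 scale (limma adjusted p = 0.0363), and the median was -0.22. Of all genes tested 8.03% were lower. Sdhaf3 was called under 2 of the 6 other scalings, and not with quantile normalization, either normexp setting (-0.12 and -0.33) or the authors' deposited table (limma adjusted p from 0.126 to 0.602). None of the 5 tested assembly factors of complex III or the 5 of complex V passed the test (medians 0.01 and 0.05).

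Among 20 genes of the electron carriers and of adenine nucleotide exchange, 3 rose and 1 fell, beside 11.8% and 8.03% of all genes tested. Cycs, cytochrome c itself, had 5.10, 5.00 and 5.64 on the control arrays and 6.35, 6.14 and 6.36 with IFN-beta, all above the controls. Its difference was 1.04 ± 0.21 (n = 3 per group; limma adjusted p = 0.0140), and 0.64 against control 3 alone (limma adjusted p = 0.126). Pdss1, which starts the side chain of ubiquinone, rose by 0.97 (limma adjusted p = 0.0224). With spike-in scaling neither Cycs nor Pdss1 was called (0.73 and 0.66, limma adjusted p = 0.0987 and 0.147). Coq8a, a kinase-like protein of ubiquinone synthesis, had -0.17, -0.41 and -3.09 on the control arrays and was not well above background on any IFN-beta array. It was at least 7.58-fold lower with IFN-beta (limma adjusted p = 0.0113), a bound that rests on controls 1 and 2: it was 14.5-fold against them and 2.08-fold against control 3. For that bound each IFN-beta array counts at the dimmest signal called well above background on it, or at the probe's own signal where that is higher. The fitted difference was -3.81, and with normexp it was -1.21 or -1.50. Its level was highest on controls 1 and 2, as with the stromal and erythroid markers, and the part of such RNA was not tested.

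In the tricarboxylic acid cycle, which feeds the chain, 1 of 18 genes fell, Sucla2 of succinyl-CoA ligase (-0.86 ± 0.16, limma adjusted p = 0.0107), and none rose (median 0.08). For this list and the next, the shares of all genes tested were 8.03% lower and 11.8% higher. Of 15 tested regulators of mitochondrial gene expression 1 rose, the coactivator Pprc1 (0.65 ± 0.17, limma adjusted p = 0.0349), and none fell (median 0.23). Without control 3, 5 were called higher and 0 lower, beside 33.1% and 15.1% of all genes. With cyclic loess it was 1 and 3, beside 14.5% and 13.9%. The median of these regulators was -0.01 against control 3 alone and -0.08 with spike-in scaling. Pprc1 was not called with spike-in scaling (0.34, limma adjusted p = 0.415) or when its probes were averaged (0.41, limma adjusted p = 0.131). The factors whose motifs were searched above did not pass the test: Nrf1 had 0.25 (limma adjusted p = 0.379), Gabpa -0.50 (0.0961), Gabpb1 0.40 (0.128) and Yy1 0.46 (0.168).

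The mitochondrial ribosome, which translates the mitochondrially encoded subunits, had 9 genes that rose and 2 that fell among 78, with a median of 0.30 and 69 positive. The share of its genes that rose was close to that of all genes (11.8%), and 8.03% of all genes were lower. Called higher and lower were 38 and 2 without control 3, 18 and 5 with cyclic loess, and 2 and 2 with spike-in scaling. The shares of all genes were 33.1% higher and 15.1% lower without control 3. They were 14.5% and 13.9% with cyclic loess and 5.11% and 14.2% with spike-in scaling. Mrps22 had 1.60, 1.59 and 2.15 on the control arrays and 3.04, 2.87 and 3.26 with IFN-beta (1.27, limma adjusted p = 0.00660). Mrps18b had 3.89, 3.60 and 4.29 against 5.13, 5.20 and 5.23 (1.26, limma adjusted p = 0.00592). Both were apart between the groups and kept their call without any one array. Mrpl35 and Mrpl52 fell, by 0.82 and 0.66 on the log2 scale (limma adjusted p = 0.0266 and 0.0440). Mrpl35 turned to 0.16 with normexp and percentile scaling (limma adjusted p = 0.399) and had -0.18 with normexp and quantile normalization (limma adjusted p = 0.173). Against control 3 alone the list's median was 0.02, and with spike-in scaling it was -0.00. The list for the cytosolic ribosome had 2 genes that rose, Rpl7l1 and Rps4l, and none that fell among 82 (median 0.13). The shares of all genes were 11.8% higher and 8.03% lower. Both genes are listed by name alone, which does not show that they encode ribosomal proteins, and the transcript given for the Rps4l probe is non-coding. Neither was called with spike-in scaling (0.59 and 0.33, limma adjusted p = 0.170 and 0.458). Called higher and lower in this list were 26 and 0 without control 3, 2 and 5 with cyclic loess, and 0 and 0 with spike-in scaling, beside the shares given above. Its median was 0.25 without control 3, -0.07 with cyclic loess and -0.18 with spike-in scaling, and -0.16 against control 3 alone.

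Of the 17 genes named from these lists as having passed the test, Cox18, Mrps18b, Mrps22 and Coq8a kept their call without any one array. The other 13 lost it without at least 1 (limma adjusted p from 0.0513 to 0.167). These were ND1, Ndufaf6, Ecsit, Sdhaf3, Cox10, Cycs, Pdss1, Sucla2, Pprc1, Mrpl35, Mrpl52, Rpl7l1 and Rps4l, and without control 3 all of them kept it. With the slide as a block, Cox18 alone of the 17 was called (limma adjusted p = 0.0324), and the other 16 had an adjusted p from 0.0655 to 0.331.

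**Figure D5:**
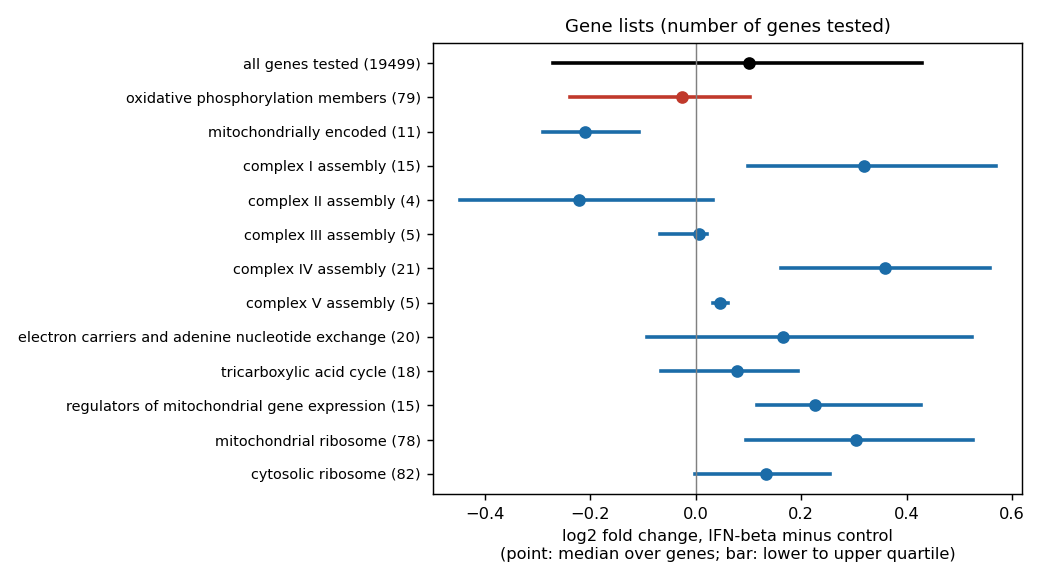
Median (point) and quartiles (bar) of the difference between IFN-beta and control arrays (log2) for the members, for 11 lists of partner genes and for all genes tested, with the number of genes tested in brackets. The members' median is -0.03, those of the complex I and IV assembly lists are 0.32 and 0.36, that of the mitochondrially encoded subunits is -0.21, and that of all genes is 0.10; with spike-in scaling the assembly medians are 0.01 and 0.05.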

How the data were processed

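Cy3-labelled RNA of 6 samples was measured on Agilent arrays. Agilent Feature Extraction 12.0.3.1 read the spots, per the file headers. The intensity used from these deposited files is the processed signal of a spot, detrended by that program, given a surrogate where dim, and not normalized between arrays. The authors' log2 values are in a further deposited table. The submitters' processing notes name limma, and the normalization of that table is not given in the sources used here. Each column tracked log2 of its array signal (r between 0.996 and 0.999), so its scale is log2 and genes are not centred, with column medians of 4.81, 4.81, 4.82, 4.82, 4.82 and 4.80, and it served as an alternative.

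Outlier spots (135 to 174 per array) were left out, spots of each of 56605 probes were averaged, and log2 signals were set relative to the 75th percentile of the array. A probe was tested if well above background on all 3 arrays of at least 1 group (29794 probes), and the probe with the highest mean represented its gene. Members keep the gene name of the files, and other genes were named through a RefSeq table (GRCm38.p6, used for names and promoters) where an accession or symbol matched (32994 and 10224 probes). Probe positions are those of the files (mm9). Limma 3.58.1 in R 4.3.3 (lmFit and eBayes, no covariate, 4 residual degrees of freedom plus the prior) compared the groups of the labels, with Benjamini-Hochberg adjustment over 19499 genes; the script was tested on simulated data. Intervals are 95% intervals of the fit.

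Members and lists were chosen with earlier results of these data known. Given in full are members past the test, the highest and lowest of each complex, isoforms, members with a called probe that disagrees, and some chosen after their values were seen; each list gives up to 2 genes past the test per direction, by lowest p. The interferon motif was added after the others. A few genes that match the name pattern are not reported here.

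Alternatives were 6 scalings (quantile, fast cyclic loess, 8 spike-in probes, normexp with an offset of 50 under 2 normalizations, the deposited table), 2 filters on dim probes, the mean of a gene's probes, eBayes with trend and robust, array weights, replicate and slide blocks, slide 1 alone, control 3 alone and leaving out each array.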

Additional observations from a re-analysis of the deposited data

How the results depend on the processing

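The main counts were 1 member higher and 2 lower with a median difference of -0.03. Members called lower numbered 10 with quantile normalization, 15 with cyclic loess, 9 with normexp and percentile scaling, 17 with normexp and quantile normalization, 5 in the deposited table, 1 without the filter on dim probes and 0 with the slide as a block or within slide 1. Members called higher numbered 0 with spike-in scaling, with normexp and percentile scaling, without the filter, with the slide as a block and within slide 1. The median moved to -0.20 with cyclic loess and to -0.33 with spike-in scaling. Array weights, whose fit did not fully converge, gave 17 higher and 14 lower, beside 43.1% and 22.3% of all genes. Against control 3 alone there were 0 higher and 1 lower, with a median of -0.31. Leaving out 1 array gave 0 to 9 higher, 1 to 3 lower and a median from -0.11 to 0.12. A filter requiring all 6 arrays above background, averaging the probes of a gene, and eBayes with trend and robust gave the main counts. Beyond the main test, shares of all genes were counted only for scalings, array weights, slide fits, and fits without control 3 or against it alone.

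With the replicate number as a block there were 1 higher and 1 lower, and Cox4i2 was not called (limma adjusted p = 0.0684); the block with cyclic loess gave 1 higher and 7 lower, with a median of -0.20. Deviations of arrays with the same number correlated at 0.07, 0.02 and 0.07 across genes, and those with unlike numbers at -0.09 to 0.01. Each is a deviation from a mean of only 3 arrays, so these values cannot show whether arrays with the same number share a source.

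Mrpl35 turned from -0.82 to 0.16 (limma adjusted p = 0.399) with normexp and percentile scaling, and the cause was not tested. The sign of the difference turned in up to 33 of the 79 members, with spike-in scaling. The cause of these shifts was not tested. The scalings, blocks and left-out arrays kept the probe and the 19499 genes of the main test. With 3 arrays per group, a median half-width of 0.44 limits what can be told from 0.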
